A study of Homo sapiens with 34 samples.

Results

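TAZ-CAMTA1 and YAP-TFE3, which define the molecular types of a vascular sarcoma called epithelioid hemangioendothelioma, were compared by where they bind chromatin. Binding was measured by chromatin immunoprecipitation and sequencing (ChIP-seq) with an antibody to the Flag tag. The cells were SW872, a human liposarcoma line, stably transduced with Flag-tagged TAZ-CAMTA1 or Flag-tagged YAP-TFE3 and grown near confluence. The binding is therefore that of an introduced, tagged protein in a line that is not vascular. Each fusion had 3 Flag libraries and 2 input libraries, and the authors pooled the Flag reads of a construct before calling peaks, so each fusion is represented by a single peak list. Flag-tagged TAZ4SA and YAP5SA, forms of TAZ and YAP whose LATS phosphorylation sites are alanines, served as context, as did full-length TFE3 and CAMTA1. For the CAMTA1 cells the labels give collection below confluence, whereas the methods for ChIP-seq give the density used for the other lines. IgG from empty vector cells gave the background list.

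All peaks on chromosomes 1 to 22 and X were used, on the GRCh37 assembly. These were 1184 TAZ-CAMTA1 peaks and 3336 YAP-TFE3 peaks, together 4520 of 10414 peaks in the 7 lists. A peak was called common when it shared at least 1 bp with a peak of the other fusion. Otherwise it was called TAZ-CAMTA1-only or YAP-TFE3-only. Since replicates were pooled, no value has a replicate error and no test between conditions was possible. Shares are given with 95% Wilson intervals and differences of shares with 95% Newcombe intervals, and both kinds of interval treat peaks as independent and hold no error other than that of counting. No molecular identifiers are mentioned in the protocols, so counts of fragments are not counts of independent molecules.

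TAZ and YAP are the transcriptional coactivators at the end of the Hippo pathway. They do not bind DNA by themselves and reach it largely through TEAD transcription factors, at enhancers that often also carry AP-1 sites. The amino-terminal part kept in each fusion contains the TEAD-binding domain. TFE3, by contrast, is a basic helix-loop-helix leucine zipper factor of the MiTF family that binds DNA directly and controls lysosomal genes among others. CAMTA1 is a calmodulin-binding transcription activator. Each fusion thus joins a similar TEAD-binding part to a different carboxy terminus.

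The lists were not of the same depth. The fragments under each summit were recovered from the deposited fold enrichment and p-value for 99.2% of TAZ-CAMTA1 peaks and 98.7% of YAP-TFE3 peaks. The pooled TAZ-CAMTA1 immunoprecipitation covered each base with 2.52 fragments on average, and the YAP-TFE3 one with 10.5. The peak caller had scaled the YAP-TFE3 fragments by 0.356 and the TAZ-CAMTA1 fragments by 1.00. Among these peaks, a TAZ-CAMTA1 summit held a median of 19 fragments (range 11 to 118) and a YAP-TFE3 summit a median of 59 (range 37 to 1073). Relative to mean coverage the weakest summits stood at 4.36-fold and 3.53-fold. The TAZ4SA list had a mean coverage of 2.33 and a scaling of 1.00, and the YAP5SA list 10.7 and 0.307. Depth thus moved with the construct family, and the fusion and its technical set cannot be told apart in what follows. Depth was not recovered for the TFE3 and CAMTA1 lists. The IgG list held 4 peaks on chromosomes. They were overlapped by 0 of 1184 TAZ-CAMTA1 peaks and by 0 of 3336 YAP-TFE3 peaks, with upper Wilson bounds of 0.323% and 0.115%. With 4 peaks in the IgG list few overlaps were possible, so these counts say little about background.

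To determine how far the fusions occupied the same sites, each list was split by the other. Of 1184 TAZ-CAMTA1 peaks, 601 were common (50.8%, 47.9% to 53.6%) and 583 were not. Of 3336 YAP-TFE3 peaks, 608 were common (18.2%, 17.0% to 19.6%) and 2728 were not. The common peaks formed 599 loci, of which 588 had 1 peak of each fusion, 9 had 2 YAP-TFE3 peaks and 2 had 2 TAZ-CAMTA1 peaks. The numbers of common peaks were thus nearly equal, and the shares differed with the lengths of the lists. With YAP-TFE3 reduced to its strongest 1184 peaks, 28.5% of TAZ-CAMTA1 peaks and 28.6% of YAP-TFE3 peaks were common. A further setting was chosen after seeing the data. In it, 2687 of 3336 YAP-TFE3 peaks (80.5%) kept the TAZ-CAMTA1 p threshold when their fragments were scaled to the TAZ-CAMTA1 coverage, and 47.0% of TAZ-CAMTA1 peaks overlapped these.

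Near the border between the classes, the common pair with the least overlap shared 1 bp, where the TAZ-CAMTA1 peak at chr5:171530084-171530720 met the YAP-TFE3 peak at chr5:171529823-171530084. The closest pair without overlap lay 49 bp apart, between chr7:55132663-55133075 (TAZ-CAMTA1, 5.09-fold) and chr7:55133125-55133659 (YAP-TFE3, 5.55-fold). Few peaks were such near misses. Within 0.5 kb of a peak of the other fusion lay 23 of 583 TAZ-CAMTA1-only peaks (3.95%) and 24 of 2728 YAP-TFE3-only peaks (0.880%). The median distance to the nearest peak of the other fusion was 86.9 kb (quartiles 20.6 and 317 kb) for TAZ-CAMTA1-only peaks and 281 kb (78.9 and 875 kb) for YAP-TFE3-only peaks. The first class was measured to a list of 3336 peaks and the second to one of 1184. These shares and distances are therefore not comparable between the classes.

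The distance between summits was then measured at the shared loci. Peaks of a shared locus overlap by definition, so their widths limit how far apart the summits can lie. The median widths of common peaks were 471 bp for TAZ-CAMTA1 and 458 bp for YAP-TFE3. What distance overlap alone would give was not tested. The strongest summit of each fusion was taken at every locus. The median distance between them was 35 bp, with quartiles of 15 and 106 bp. Summits were within 50 bp at 361 of 599 loci (60.3%, 56.3% to 64.1%), within 100 bp at 445 (74.3%) and within 250 bp at 538 (89.8%). Another 16 loci had summits more than 500 bp apart, and the largest distance was 1791 bp. No side was preferred, as the median of the signed distance was 1 bp. The median distance was 27 bp in the 300 loci with the better ranks and 49 bp in the other 299. It was 32 bp at loci that TAZ4SA and YAP5SA also occupied and 58 bp at loci that neither occupied.

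**Figure D1:**
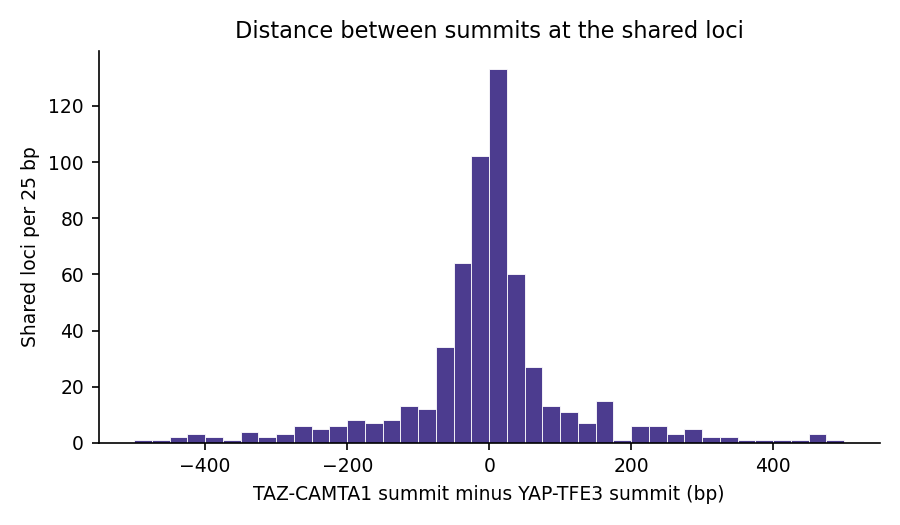
Histogram of the distance between the TAZ-CAMTA1 summit and the YAP-TFE3 summit at the shared loci, in bins of 25 bp, with the number of loci on the y axis. The distances centre on 0, with 361 of 599 loci within 50 bp, and the 16 loci beyond 500 bp are not drawn.

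The strength of a shared locus in one fusion described only part of its strength in the other. Across the 599 loci the Spearman correlation of −log10 q was 0.34, and it was also 0.34 for fold enrichment and 0.37 for summit fragments (585 loci). These are descriptions across loci of a single pair of lists, not across samples. The correlation was 0.46 in the 266 loci also found in both TAZ4SA and YAP5SA, 0.19 in the 201 found in YAP5SA alone, 0.16 in the 27 found in TAZ4SA alone and 0.14 in the 105 found in neither. The sets also differed in strength. Median −log10 q was 12.4 for TAZ-CAMTA1 and 10.7 for YAP-TFE3 in both, and 5.65 and 4.60 in neither. The part of set size and strength in these correlations was not tested. Fold enrichment was higher for TAZ-CAMTA1 at 375 of 599 loci (62.6%), with a median ratio of TAZ-CAMTA1 to YAP-TFE3 of 1.15 (quartiles 0.855 and 1.49). Expressed as summit fragments over mean coverage, which uses neither the local background nor the caller's pseudocount, TAZ-CAMTA1 was higher at 468 of 585 loci (80.0%), with medians of 9.52 and 6.68. The order was the same in fusion-specific peaks, with medians of 6.74 and 5.44, and in the weakest summits of each list, at 4.36 and 3.53. The part of depth in the 80.0% was not tested. At the loci found in TAZ4SA alone, which lack a YAP5SA peak, TAZ-CAMTA1 was higher by this measure at 26 of 27.

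**Figure D2:**
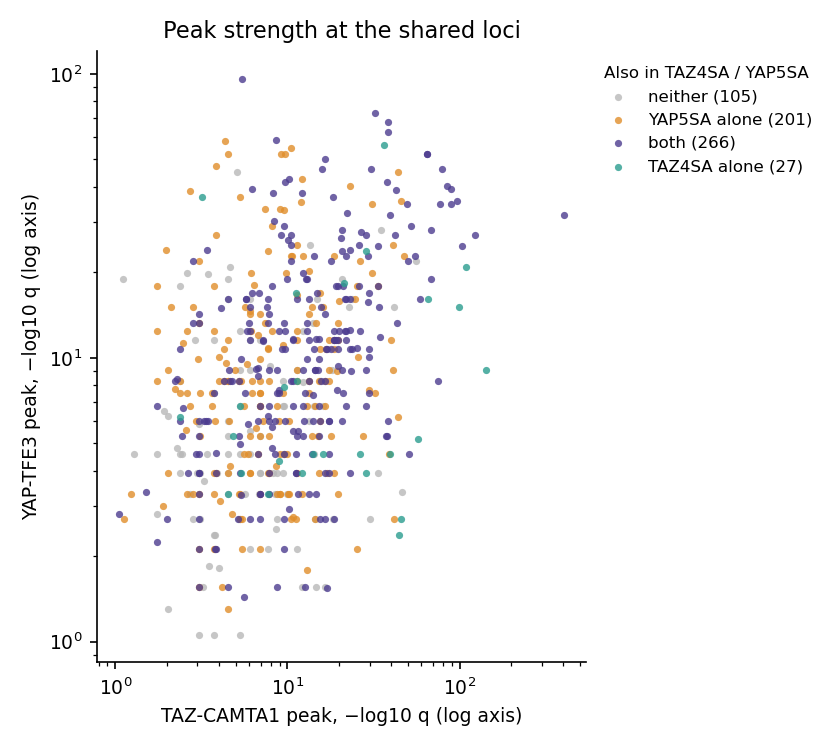
Each point is 1 of 599 shared loci, with the −log10 q of its TAZ-CAMTA1 peak on the x axis and of its YAP-TFE3 peak on the y axis, both on log scales, coloured by overlap with TAZ4SA and YAP5SA peaks. The points rise together only loosely, with a Spearman correlation of 0.34 over all loci.

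The strongest peaks of the lists were then compared. Among the strongest 100 peaks of TAZ-CAMTA1, 86 were common, and 21 of these had a partner among the strongest 100 YAP-TFE3 peaks, and the median partner rank was 302 of 3336. Of the strongest 100 YAP-TFE3 peaks, 48 were common with the shorter TAZ-CAMTA1 list, and the same 21 loci had a partner among the strongest 100. None of the 10 strongest peaks of one fusion had its partner among the 10 strongest of the other. Sharing nevertheless declined with rank in both lists. In the strongest decile of TAZ-CAMTA1 peaks 87.4% (80.2% to 92.2%) were common, in the fifth 59 of 118 (41.1% to 58.9%) and in the weakest 18.6% (12.6% to 26.6%). The corresponding shares of YAP-TFE3 peaks were 37.4% (32.4% to 42.7%), 16.8% (13.2% to 21.2%) and 7.81% (5.38% to 11.2%). The levels of the shares are not comparable between the fusions, since each was set against a list of another length. At equal lengths they were 28.5% and 28.6%. These must be nearly equal by construction, because almost all shared loci pair 1 peak of each fusion.

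Common peaks were accordingly stronger and wider than the rest of each list. In the TAZ-CAMTA1 list median fold enrichment was 5.89 (quartiles 4.58 and 8.01) in common peaks and 4.54 (3.98 and 5.68) in TAZ-CAMTA1-only peaks, a ratio of 1.30. Their summits held medians of 24 and 17 fragments, and their median widths were 471 and 353 bp. In the YAP-TFE3 list median fold enrichment was 5.33 (4.20 and 6.98) in common peaks and 4.27 (3.63 and 5.25) in YAP-TFE3-only peaks, a ratio of 1.25. The summits held medians of 70 and 57 fragments, and the widths were 458 and 323 bp. A fold enrichment of 10 or more was reached by 85 common and 14 TAZ-CAMTA1-only peaks of the first list, and by 45 common and 53 YAP-TFE3-only peaks of the second.

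**Figure D3:**
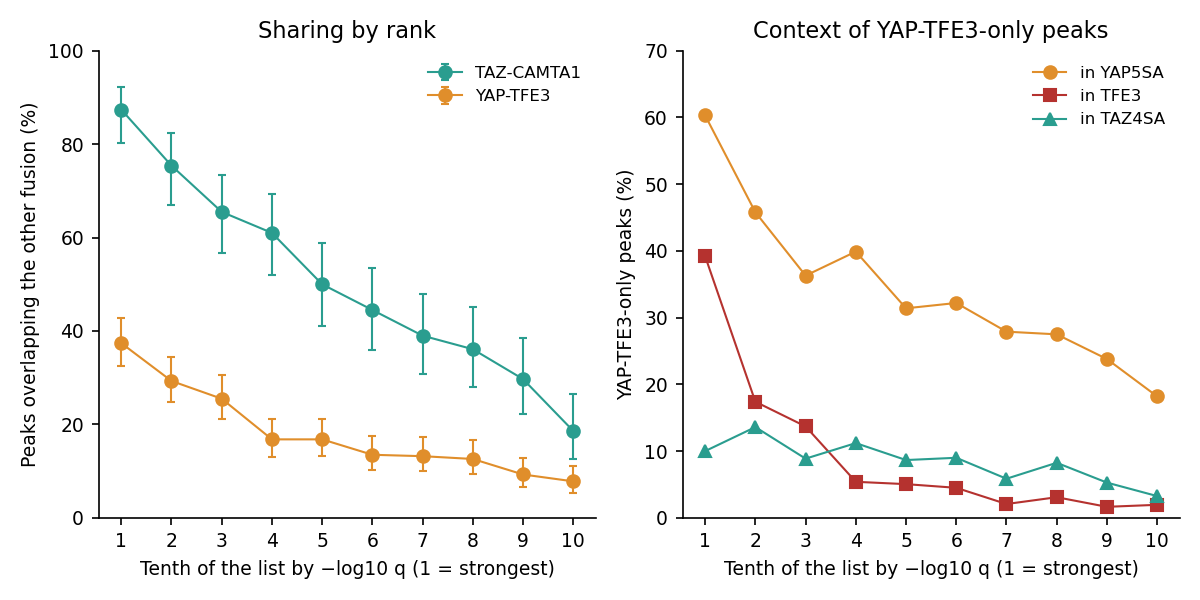
Left, share of TAZ-CAMTA1 and YAP-TFE3 peaks that overlap the other fusion, by decile of each list from the strongest (1) to the weakest (10), with 95% Wilson intervals as bars. Right, share of the YAP-TFE3-only peaks of each decile that overlap YAP5SA, TFE3 or TAZ4SA peaks. Sharing declines from 87.4% to 18.6% for TAZ-CAMTA1 and from 37.4% to 7.81% for YAP-TFE3, and overlap of YAP-TFE3-only peaks with TFE3 is highest, at 39.2%, in the strongest decile.

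The strongest common loci were then identified, as those whose poorer rank in the 2 lists was best. At the first, on chromosome 3, TAZ-CAMTA1 had a peak at chr3:134082696-134083239 with 75 fragments at the summit and a fold enrichment of 16.6, and YAP-TFE3 had one at chr3:134082587-134083272 with 188 fragments and 14.4. The ranks were 20 and 24, and the summits were 15 bp apart. The second was on chromosome 7 (chr7:151451083-151451720), at 14.1-fold with 84 fragments for TAZ-CAMTA1 and 14.2-fold with 186 fragments for YAP-TFE3. The third was on chromosome 16 (chr16:68271466-68272153), where the fold enrichments were 20.7 and 13.3 and the summits lay 1 bp apart. These loci stood within the top 34 peaks of each list and were overlapped by both TAZ4SA and YAP5SA.

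The remaining 7 of the first 10 were at chr7:104653067-104653854, chr2:47261357-47262006, chr5:1327633-1328504, chr8:48425005-48425588, chr17:43448803-43449797, chr13:21635103-21635912 and chr14:23451833-23452477, as bounded by the TAZ-CAMTA1 peaks. All 10 had summits within 38 bp of each other. YAP5SA overlapped 9 of them, all but the chromosome 13 locus, and TAZ4SA overlapped 9, all but the chromosome 7 locus at chr7:104653067-104653854. That exception, at 15.1-fold with 52 fragments for TAZ-CAMTA1 and 13.0-fold with 170 fragments for YAP-TFE3, was the single locus of the 10 with a TFE3 peak. It was also the only one of the 599 shared loci with a CAMTA1 peak.

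At other shared loci, of which the first 3 below were named after their values were seen, the fusions differed widely in strength. The strongest TAZ-CAMTA1 peak of all, at chr19:2462456-2463941 with a fold enrichment of 73.8, faced a YAP-TFE3 peak of 9.31-fold at rank 99, with summits 2 bp apart. The next, at chr14:23449613-23450968, was 33.8-fold with 118 fragments in TAZ-CAMTA1 and 5.70-fold with 73 fragments, at rank 844, in YAP-TFE3. In the other direction, the strongest shared YAP-TFE3 peak, at chr11:85779777-85780922, was 21.2-fold with 279 fragments, while the TAZ-CAMTA1 peak there was 5.01-fold with 18 fragments at rank 640. Its summits were 214 bp apart, and TFE3, YAP5SA and TAZ4SA all had peaks at this locus.

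By difference in rank percentile, the loci most in favour of TAZ-CAMTA1 were chr11:12398728-12399341 (13.1-fold against 3.40-fold), chr19:41731721-41732368 (8.27-fold against 2.60-fold) and chr8:29206086-29206827 (14.8-fold against 3.60-fold). TAZ4SA had a peak at all 3 and YAP5SA at the chromosome 19 locus. The loci most in favour of YAP-TFE3 were chr11:101980643-101981143 (7.96-fold against 2.82-fold), chr22:20923194-20923714 (9.01-fold against 3.16-fold) and chr2:235357749-235358180 (7.66-fold against 3.69-fold). None of these had a TAZ4SA peak, and YAP5SA had a peak at the loci on chromosomes 22 and 2. In each of the 6, whose peaks overlap by definition, the summits were within 79 bp.

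To place the split among the targets of the active parents, common and fusion-specific peaks were compared with the TAZ4SA and YAP5SA lists. TAZ4SA overlapped 292 of 601 common TAZ-CAMTA1 peaks, or 48.6% (44.6% to 52.6%), and 91 of 583 TAZ-CAMTA1-only peaks, or 15.6% (12.9% to 18.8%). The difference was 33.0 percentage points (27.9 to 37.8), beside an overlap of 32.3% for all TAZ-CAMTA1 peaks. YAP5SA overlapped 469 common peaks, or 78.0%, and 194 TAZ-CAMTA1-only peaks, or 33.3%, a difference of 44.8 points (39.5 to 49.6) beside 56.0% for all. The YAP-TFE3 list showed the same order. YAP5SA overlapped 472 of 608 common YAP-TFE3 peaks, or 77.6%, and 904 of 2728 YAP-TFE3-only peaks, or 33.1%, a difference of 44.5 points (40.6 to 48.1) beside 41.2% for all. For TAZ4SA the shares were 48.8% and 8.17%, a difference of 40.7 points (36.6 to 44.8) beside 15.6% for all.

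Seen by pattern, sharing between the fusions was most frequent where both active parents were present. Of the 331 TAZ-CAMTA1 peaks in both TAZ4SA and YAP5SA, 265 were common, or 80.1% (75.4% to 84.0%). The share was 61.4% (56.1% to 66.5%) of the 332 in YAP5SA alone, 51.9% (38.7% to 64.9%) of the 52 in TAZ4SA alone and 22.4% (18.8% to 26.4%) of the 469 in neither. For YAP-TFE3 it was 57.7% of 466 peaks in both, 22.3% of 910 in YAP5SA alone, 51.9% of 54 in TAZ4SA alone and 5.67% of 1906 in neither. The intervals for peaks in both parents and in neither were far apart in each list. Strength moved with the pattern: median fold enrichment of TAZ-CAMTA1 peaks was 6.31 in both parents and 4.39 in neither, and that of YAP-TFE3 peaks was 5.29 and 4.12. What part the strength of the peaks has in these shares was not tested.

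**Figure D4:**
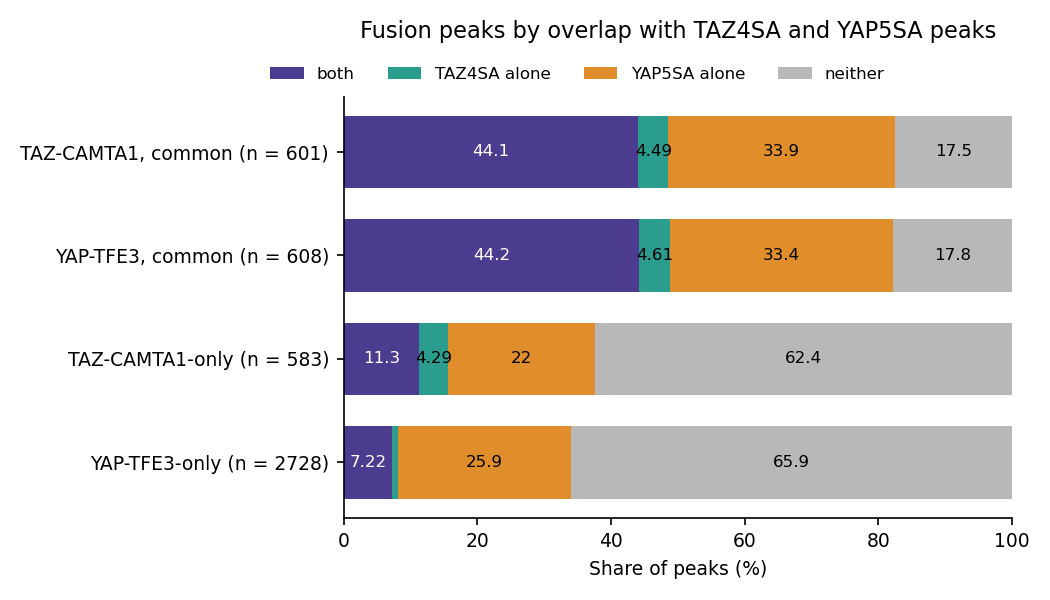
Share of common and fusion-specific peaks of each fusion (x axis, percent of the peaks in a class) that overlap both TAZ4SA and YAP5SA peaks, either alone, or neither, with the number of peaks in each class beside its name. Peaks in neither make up 17.5% and 17.8% of the common classes and 62.4% and 65.9% of the fusion-specific classes.

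The same relation was read from the parents. Of 3754 YAP5SA peaks, 475 (12.7%) were overlapped by both fusions, 186 (4.95%) by TAZ-CAMTA1 alone, 894 (23.8%) by YAP-TFE3 alone and 2199 (58.6%) by neither. Median YAP5SA fold enrichment in these sets was 6.32, 5.39, 4.96 and 4.68. Of 1166 TAZ4SA peaks, 298 (25.6%) were overlapped by both fusions, 87 (7.46%) by TAZ-CAMTA1 alone, 222 (19.0%) by YAP-TFE3 alone and 559 (47.9%) by neither, with median TAZ4SA fold enrichments of 7.54, 6.61, 6.29 and 5.11. YAP5SA and TAZ4SA peaks used by both fusions thus had the highest median of the 4 sets, and peaks used by neither the lowest.

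Some loci were common to the fusions without a peak of either active parent. They numbered 105 of 599 loci. The 5 with the best ranks, named after their values were seen, began with chr12:8122893-8123555, where TAZ-CAMTA1 was 13.1-fold with 45 fragments and YAP-TFE3 9.92-fold with 129 fragments, with summits 2 bp apart. The next was chrX:152066053-152066588, at 17.6-fold with 61 fragments for TAZ-CAMTA1 and 8.56-fold with 111 fragments for YAP-TFE3. The others were chr16:24647313-24647791, chr19:10138356-10138631 and chr20:5730964-5731922, where summits were 48, 7 and 31 bp apart. None of the 5 had a TFE3 peak, beside 1 of the 105 loci and 11 of all 599 shared loci.

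The classes of YAP-TFE3 peaks also differed in their overlap with full-length TFE3. TFE3 peaks were overlapped by 225 of 2728 YAP-TFE3-only peaks, or 8.25% (7.27% to 9.34%), and by 11 of 608 common YAP-TFE3 peaks, or 1.81% (1.01% to 3.21%), beside 7.07% of all YAP-TFE3 peaks. The difference, common minus YAP-TFE3-only, was -6.44 points (-7.79 to -4.73). It was -16.9 points when YAP-TFE3 was reduced to its strongest 1184 peaks, and -3.91 points with unplaced scaffolds included. On the TAZ-CAMTA1 side 10 of 1184 peaks (0.845%) overlapped TFE3, all of them common. TAZ-CAMTA1-only peaks did so in 0 of 583 cases, with an upper Wilson bound of 0.655%. Of 299 TFE3 peaks, 227 (75.9%, 70.8% to 80.4%) were overlapped by YAP-TFE3 alone, 10 (3.34%) by both fusions, 0 by TAZ-CAMTA1 alone and 62 (20.7%) by neither.

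YAP-TFE3-only peaks with TFE3 were among the strongest of their class. Their median fold enrichment was 6.18 in 225 peaks, against 4.20 in the 2503 without TFE3, and 30 of them reached 10-fold, against 23 of the others. In the strongest decile of the YAP-TFE3 list, 82 of 209 YAP-TFE3-only peaks (39.2%) overlapped TFE3, and in the weakest decile 6 of 307 (1.95%) did. YAP5SA overlapped 36.0% of the YAP-TFE3-only peaks with TFE3 and 32.9% of those without. Of 145 YAP-TFE3 peaks with TFE3 but without YAP5SA, 1 was common, or 0.690% (0.122% to 3.80%). Among all YAP-TFE3 peaks without YAP5SA, the common share was 5.67% of the 1906 in neither active parent. It was 51.9% of the 54 in TAZ4SA alone. Where TFE3 and YAP5SA were both present, 10 of 91 were common (6.08% to 19.1%), beside 472 of all 1376 YAP-TFE3 peaks in YAP5SA. CAMTA1, the other carboxy-terminal parent, had 156 peaks on chromosomes. CAMTA1 peaks were overlapped by 1 common and 2 TAZ-CAMTA1-only peaks, or 0.253% of all TAZ-CAMTA1 peaks, and by 11 YAP-TFE3 peaks, or 0.330% of that list. The TAZ-CAMTA1-only pair, named after its values were seen, lay at chr7:75987692-75987968 (4.16-fold, 17 fragments) and chr15:79165394-79165727 (4.10-fold, 16 fragments).

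Of the YAP-TFE3-only peaks, the first by −log10 q was chr5:10066-11735, beside the end of the short arm of chromosome 5, with 946 fragments but a fold enrichment of 6.65. Next came chr2:109815833-109816251, with a fold enrichment of 1.95 and fragments that could not be recovered. These 2 had the lowest fold enrichments of the 10 strongest, and the others lay between 12.4 and 23.8. Fold enrichment at chr17:7137455-7138210 was 23.8 with 314 fragments, at chr19:50639909-50640702 it was 17.1 with 346 fragments, and at chr2:33091798-33092088 it was 19.6 with 258 fragments. The other 5 were chr19:48423488-48424270 (18.2-fold), chr11:67158895-67159779 (17.3-fold), chr7:100270572-100271363 (16.6-fold), chr20:49056698-49057458 (16.5-fold) and chr7:44530130-44530776 (12.4-fold). Of these 10 peaks, 7 overlapped TFE3, 8 overlapped YAP5SA and 1 overlapped TAZ4SA. The low-enrichment peaks chr5:10066-11735 and chr2:109815833-109816251 both overlapped TFE3 and YAP5SA, and the former was the 1 in TAZ4SA. The distance to the nearest TAZ-CAMTA1 peak was 69.4 kb or more in all 10.

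Among the 100 strongest YAP-TFE3-only peaks, 70 overlapped YAP5SA, 52 overlapped TFE3 and 9 overlapped TAZ4SA. The shares of all YAP-TFE3-only peaks were 33.1%, 8.25% and 8.17%. Of the 100 strongest peaks of the whole YAP-TFE3 list, 86, 36 and 35 overlapped these lists. The 5 strongest outside both active parents were the peaks at chr2:33091798-33092088 and chr20:49056698-49057458 above, followed by chr16:81214634-81215299 (12.8-fold, 168 fragments), chr20:25603715-25605129 (12.4-fold, 162 fragments) and chr5:39399421-39399891 (11.4-fold, 149 fragments). Of the 5, the first alone had a TFE3 peak.

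Among TAZ-CAMTA1-only peaks the strongest was chr19:34971987-34972691, at 26.4-fold with 92 fragments and rank 6 of 1184, followed by chr9:96928487-96929444 at 25.3-fold with 88 fragments and rank 9. TAZ4SA overlapped both and YAP5SA neither, and the nearest YAP-TFE3 peaks were 837 and 92.0 kb away. The next 3 were chr11:12695648-12696339 (12.8-fold, 76 fragments), chr16:68741230-68741915 (13.6-fold, 63 fragments) and chr17:40575233-40575965 (14.2-fold, 49 fragments), of which the chromosome 16 peak overlapped YAP5SA. The 10 were completed by chr3:11760965-11761840, chr1:29450908-29451362, chr11:9787186-9787560, chr1:8964070-8964581 and chr15:60689716-60690450, at 9.62-fold to 13.1-fold. Of these 10, 4 overlapped TAZ4SA, 4 overlapped YAP5SA, 3 overlapped neither and 0 overlapped TFE3.

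Those in neither were the peaks on chromosomes 11 (chr11:12695648-12696339), 17 and 3. The next by rank outside both active parents were chr17:55952432-55953028 (11.4-fold, 39 fragments) and chr3:37977809-37978139 (10.2-fold, 35 fragments). Among the 100 strongest TAZ-CAMTA1-only peaks, 58 overlapped YAP5SA, 29 overlapped TAZ4SA, 0 overlapped TFE3 and 35 overlapped neither active parent. The shares of all TAZ-CAMTA1-only peaks were 33.3%, 15.6%, 0% and 62.4%. Of the 100 strongest peaks of the whole TAZ-CAMTA1 list, 75 overlapped YAP5SA, 65 overlapped TAZ4SA and 2 overlapped TFE3.

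Finally, the classes were compared by chromosome. Chromosome 5 held 467 of 2728 YAP-TFE3-only peaks, or 17.1%, against 36 of 583 TAZ-CAMTA1-only peaks, or 6.17%, and 65 of 601 common TAZ-CAMTA1 peaks, or 10.8%. The active parents differed likewise, with 689 YAP5SA peaks (18.4% of that list) and 120 TAZ4SA peaks (10.3%) on chromosome 5, so a high share there was not particular to YAP-TFE3-only peaks. The share of YAP-TFE3 peaks that were common was 12.5% on chromosome 5 and 19.3% on the other chromosomes, while for TAZ-CAMTA1 it was 64.4% and 49.5%. The local background used by the caller differed between the lists there: 3.96% of TAZ-CAMTA1 peaks on chromosome 5 with recovered fragments stood at the lowest background of their list, against 51.0% of YAP-TFE3 peaks. Over all chromosomes these shares were 41.4% and 74.4%. Such a difference was not particular to chromosome 5: the shares were 8.40% and 78.9% on chromosome 7, and 7.04% and 72.3% on chromosome 20. The part of the background in the chromosome 5 shares was not tested. Chromosomes 4 and 21, named after their values were seen, had the lowest common shares in both lists. On chromosome 4, 4 of 24 TAZ-CAMTA1 peaks (6.68% to 35.9%) and 4 of 41 YAP-TFE3 peaks (3.86% to 22.5%) were common. On chromosome 21 a single locus was shared among 9 TAZ-CAMTA1 peaks (1.99% to 43.5%) and 30 YAP-TFE3 peaks (0.591% to 16.7%). The shares over all chromosomes were 50.8% and 18.2%.

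**Figure D5:**
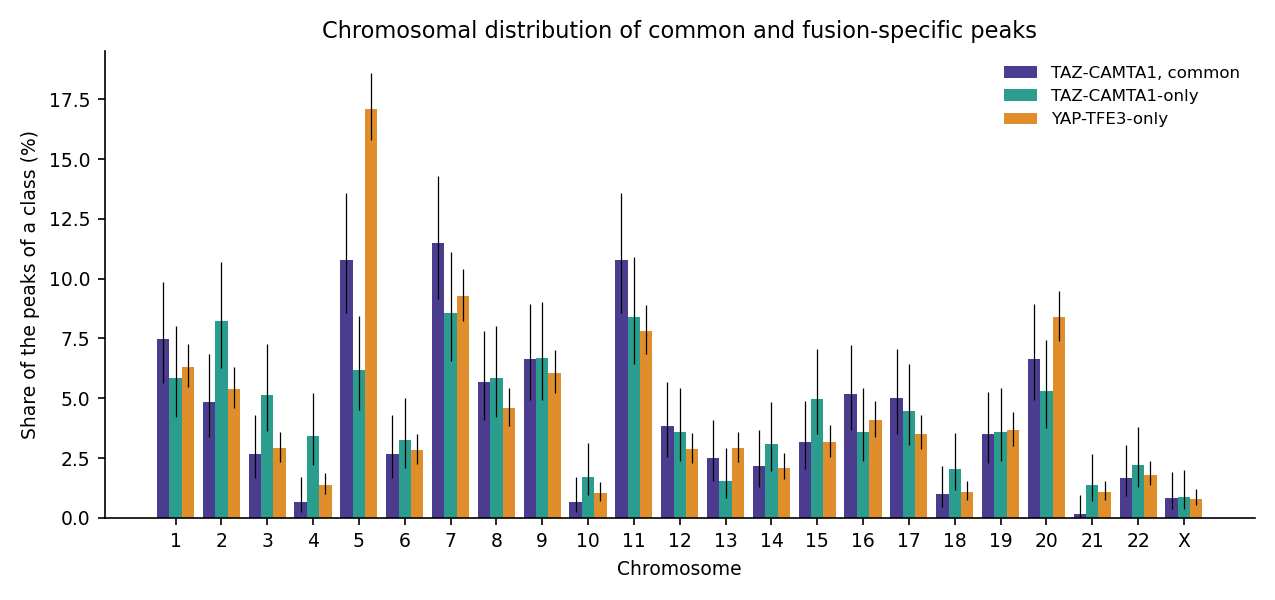
Share of the peaks of each class (y axis, percent) on each chromosome (x axis) for common TAZ-CAMTA1 peaks, TAZ-CAMTA1-only peaks and YAP-TFE3-only peaks, with 95% Wilson intervals as thin lines. Chromosome 5 holds 17.1% of YAP-TFE3-only peaks and 6.17% of TAZ-CAMTA1-only peaks, and it holds 18.4% of YAP5SA and 10.3% of TAZ4SA peaks, which are not drawn.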

How the data were processed

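Per the study's methods, reads were trimmed (Atropos) and aligned to GRCh37 (BWA-MEM), and the authors merged replicates, dropped multi-mapping reads and greylisted regions, and called peaks with macs2 on whole fragments at a permissive q. The submitters' processing notes name hg38 instead, but the lists carry GRCh37 scaffold names and 17 of 4520 fusion peaks ended past the supplied GRCh38 chromosomes. Genes, motifs and sequences were therefore not analysed here. The fold enrichment in the deposited lists is a ratio of pileup to local background, each plus a pseudocount of 1. The p-value and q-value were deposited as −log10 values. A display score, deposited by the authors, was not used. The peak lists used here hold no value per replicate.

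From these, overlaps (at least 1 bp), shared loci (connected groups of overlapping peaks), summit distances and ranks by −log10 q were computed. Starts are given 1-based. Fragments at a summit were recovered as the whole number that solves fold enrichment and p together, and this was tested on simulated data. The lowest background found at 5 or more peaks, over the scaling, was taken as mean coverage. It gives the precision of a summit: 11 fragments were the least among the 1174 of 1184 TAZ-CAMTA1 peaks that could be solved. Named loci were the 10 best common loci, the 10 strongest peaks found in a single fusion, the first 5 of those outside both active parents, the 3 loci most discordant in rank in each direction and the border cases. Loci outside this rule are given as named after their values were seen. The members and lists were chosen with earlier results of these data known. Alternatives were reciprocal overlap of 50%, gaps of 500 bp or less counted as sharing, q below 0.01, YAP-TFE3 reduced to 1184 peaks, unplaced scaffolds included, windows of 250 bp to each side of summits and other measures of strength. Tools were scipy 1.17.1, pandas 2.3.3, matplotlib 3.10.9 and numpy 2.4.6, run under Python 3.11.15.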

Additional observations from a re-analysis of the deposited data

How the results depend on the processing

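Of 91 alternatives run over 11 results, 74 stayed within the 95% interval of the reported value, 17 moved outside it and 0 reversed. The interval was 32.0 to 42.0 bp for the median summit distance and 0.27 to 0.41 for the rank correlation. For the ratios of median fold enrichment it was 1.22 to 1.42 in the TAZ-CAMTA1 list and 1.17 to 1.30 in the YAP-TFE3 list. Reciprocal overlap of 50% lowered the common share to 34.6% of TAZ-CAMTA1 and 12.3% of YAP-TFE3 peaks, the median summit distance to 31.5 bp, and the differences in TAZ4SA overlap to 27.3 points for TAZ-CAMTA1 and 36.2 points for YAP-TFE3, and raised the rank correlation to 0.43. YAP-TFE3 reduced to 1184 peaks gave common shares of 28.5% and 28.6%, a summit distance of 29.0 bp, a ratio of fold enrichment of 1.10 in the YAP-TFE3 list and a TFE3 difference of -16.9 points. Unplaced scaffolds moved the TFE3 difference to -3.91 points. With −log10 p as the measure of strength, the ratios of common to fusion-specific medians were 1.63 for TAZ-CAMTA1 and 1.47 for YAP-TFE3. Both were counted as moved against the intervals for fold enrichment, which is on another scale. YAP-TFE3 scaled to the TAZ-CAMTA1 coverage, chosen after seeing the data as was leaving out chromosome 5, gave common shares of 47.0% and 20.8% and a TFE3 difference of -8.03 points. Fewer or stricter peaks are part of the construction of these alternatives, and otherwise the cause was not tested. A gap of 500 bp, q below 0.01, summit windows, fold enrichment as the rank measure and leaving out chromosome 5 moved no result outside its interval. No paired analysis was possible because peaks were called on merged replicates, which also means that no replicate could be left out. At 2.52 fragments per base, no TAZ-CAMTA1 peak with recovered fragments had fewer than 11 at its summit, so the absence of a peak from a YAP-TFE3-only locus is an absence at this depth. Naming the genes nearest to the loci was not run, since the supplied annotation was of GRCh38.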

Other observations

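Fusion-specific and common peaks were also counted in windows, chosen after seeing the data as the 1 Mb windows with the most peaks of a class. The densest window of YAP-TFE3-only peaks, from 158634399 to 159602961 on chromosome 5, held 21 such peaks, 3 common ones and 3 TAZ-CAMTA1 peaks, all 3 common. On chromosome 19 from 50268969 to 51227801, 20 YAP-TFE3-only peaks lay without a TAZ-CAMTA1 peak. YAP5SA overlapped 9 of the 20, beside 33.1% of all YAP-TFE3-only peaks. The median local background of these 20 peaks was 1.65 times the lowest of the list. Another window, on chromosome 20 from 48128592 to 49113493, held 19 YAP-TFE3-only peaks and 2 TAZ-CAMTA1 peaks, of which 1 was common. In the chromosome 5 and chromosome 20 windows the YAP-TFE3 background was 1.00 times its lowest value. The TAZ-CAMTA1 background there was 1.36 and 1.55 times its lowest value. The part of the background in these counts was not tested. The densest window of TAZ-CAMTA1-only peaks, a class of 583 against 2728, held 6, on chromosome 11 from 121763152 to 122214573.

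The densest group of shared loci was on chromosome 13 from 97774433 to 97980584, a span of 206 kb. It held 8 shared loci, with 8 TAZ-CAMTA1 peaks and 15 YAP-TFE3 peaks, of which 9 were common. YAP5SA overlapped all 8 TAZ-CAMTA1 peaks and TAZ4SA overlapped 3 of them, beside 78.0% and 48.6% of all common TAZ-CAMTA1 peaks. The local background was raised in both lists, at 2.09 times the lowest value for TAZ-CAMTA1 and 1.36 times for YAP-TFE3. A second group, on chromosome 15 from 67058649 to 67442675, held 7 shared loci. TAZ4SA overlapped 6 of its 8 TAZ-CAMTA1 peaks, beside 48.6% of all common TAZ-CAMTA1 peaks and 32.3% of the whole list. The background of this group was 1.15 times the lowest value for TAZ-CAMTA1 and at the lowest value, a median of 1.00 times, for YAP-TFE3.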
